A study of Mus musculus with 24 samples.

Results

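The lungs of 2 inbred mouse strains, C57BL/6J and BALB/c, were compared without the drug, after intratracheal saline only. Of the 24 arrays of the series, 8 entered the comparison: 2 of C57BL/6J and 2 of BALB/c with lungs taken at 24 h, and 2 of each strain with lungs taken at 14 d. They were chosen by the strain, the treatment and the time in their titles, so 4 C57BL/6J arrays stood against 4 BALB/c arrays. Each array measured total RNA of whole murine lung on an Affymetrix expression array with 1 sample per array, and the values are linear intensities, 1 for each probe set. No genotype other than the strain, no sex and no age is given in the labels used here. By its title the series asks which genes make a strain prone to fibrosis of the lung. Most of its other arrays are from mice given bleomycin at 1.5 U per kg. For BALB/c saline at 24 h the description names both bleomycin and saline, and the titles were followed. The labels do not say that the arrays of a group, lettered a and b, came from separate animals, so each p-value measures only the spread between these arrays, which may be technical.

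The 4 saline arrays of 72 h were left out because their strain titles look exchanged. H2-Ea, a gene of which C57BL/6J mice are known to lack the product, measured 4821 and 3622 on the 72 h arrays labelled C57BL/6J, and 89.5 and 48.3 on those labelled BALB/c. Of the 78 probe sets that differed between the strains at both other times, 73 had the opposite sign on the 72 h arrays as labelled.

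Inbred strains differ at many fixed alleles, and a strain difference in an untreated tissue can concern the amount of a transcript or the fit of an array's probes to its sequence, which intensities alone do not separate. The major histocompatibility complex on chromosome 17, called H2 in mice, is the best known case: C57BL/6J carries its b haplotype and BALB/c its d haplotype. Class II molecules of this complex pair an alpha with a beta chain to present peptides, as I-A (from H2-Aa and H2-Ab1) and I-E (from H2-Ea and H2-Eb1), and mice of the b haplotype are known to make no I-E. Guanylate binding proteins, encoded side by side on chromosome 3, are interferon-induced GTPases of defence against pathogens inside cells.

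Stretches of promoters from 2 gene families are shown first, because in each family 1 gene differed strongly between the strains while relatives did not pass the test over both times. H2-Ea itself was not searched for the motif. They come from the RefSeq promoter table, on assembly GRCm38.p6, which is the genome of strain C57BL/6J. For the class II genes the Y box, CTGATTGG, or its reverse complement was searched in the 250 bases before the start, and 3.83% of 32851 promoters held it. Of the 12 class II genes tested, 8 had a promoter in the table and 3 of these held it: H2-Aa, H2-Eb1 and H2-Oa. H2-Aa (chr17:34287841-34287900, minus strand, 51 bases before the start) and H2-Eb1 (chr17:34305779-34305838, plus strand, 62 bases before the start) are printed with the Y box in capitals.
H2-Aa: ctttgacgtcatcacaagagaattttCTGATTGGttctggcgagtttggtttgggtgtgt
H2-Eb1: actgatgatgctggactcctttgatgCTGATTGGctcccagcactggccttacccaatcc
For the guanylate binding proteins a motif of interferon response elements was searched in the same window, with GAAA repeated after 2 bases of any kind (TTTC on the other strand). It was held by 2.98% of all promoters and by all 4 guanylate binding protein genes tested. The capitals mark it in Gbp2b (chr3:142594684-142594745, 137 bases before the start), Gbp2 (chr3:142620578-142620639, 59 bases before), Gbp3 (chr3:142559973-142560034, 45 bases before) and Gbp7 (chr3:142530257-142530318, 53 bases before), each on the plus strand.
Gbp2b: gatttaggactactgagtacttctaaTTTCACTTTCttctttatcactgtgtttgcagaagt
Gbp2: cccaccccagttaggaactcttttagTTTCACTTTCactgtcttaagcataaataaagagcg
Gbp3: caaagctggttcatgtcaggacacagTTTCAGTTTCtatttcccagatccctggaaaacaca
Gbp7: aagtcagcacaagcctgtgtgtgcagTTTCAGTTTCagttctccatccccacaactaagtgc
Of the 68 genes that differed at both times, 55 had a promoter in the table, of which 3 held the Y box letters and 4 the interferon motif. A match describes these letters only, and these sequences hold for C57BL/6J.

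Array medians lay between 313.2 and 407.7 over the series, and within each of the 4 groups compared the a and b arrays had a correlation of 0.947 to 0.978 over probe sets, which are not independent replicates. The lung label was checked on the alveolar genes Sftpc, Sftpb and Ager, the airway gene Scgb1a1 and the endothelial gene Pecam1. The C57BL/6J 24 h arrays stood apart: Sftpc read 78641 and 43229.9 there and between 127 and 650.5 on the other 6 arrays. Their titles alone end in s1 where the other 6 end in s2, so at 24 h strain and that suffix cannot be told apart, while the 14 d comparison lies within s2. Their highest values were these same Sftpc readings, against 9682 to 14338 on the other 6. Probe sets whose mean on these 2 arrays exceeded 6888, the lowest array maximum of the series, are called the brightest below (282 of those tested). The b array of C57BL/6J at 14 d was low in epithelial genes, with 339.7 for Sftpb, 335 for Scgb1a1 and 443 for Ager, where the other 7 arrays read at least 1404 for each.

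Differences are C57BL/6J minus BALB/c in log2(intensity + 91.69), with the standard error (SE) from the model, so a negative value means higher in BALB/c, and the offset makes the difference of a dim probe set look smaller. A probe set was tested where at least 2 of the 8 arrays exceeded 225.7, which left 8243, and was called at a limma adjusted p under 0.05. With time as a block, 275 probe sets differed between the strains (3.34% of those tested). Of these 152 were higher in C57BL/6J (1.84%) and 123 higher in BALB/c (1.49%). Tested at each time by itself, 174 were called at 24 h (2.11%) and 917 at 14 d (11.1%). A set of 78 probe sets was called at each of the times in the same direction (0.946%). Of these 46 were higher in C57BL/6J (0.558%) and 32 higher in BALB/c (0.388%), and all 78 were also called over both times. Their 4 C57BL/6J values did not overlap their 4 BALB/c values in any of the 78, which held for 916 of all probe sets tested (11.1%). The size of the difference among the 78 ran from 0.72 to 5.32 with a median of 1.34, and 17 exceeded 2, of which 9 were higher in C57BL/6J and 8 in BALB/c. The median over all probe sets tested was -0.03. Single arrays moved these counts. Without 1 BALB/c 14 d array the 78 became 28 (a) or 25 (b), without 1 BALB/c 24 h array 41 (a) or 39 (b), and without the C57BL/6J 24 h a array 34. The 275 became 108 or 120 without a BALB/c 14 d array (a or b) and 129 or 157 without a C57BL/6J 14 d array (a or b).

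The 78 probe sets represent 68 genes and 5 probe sets without a single gene name. Taking for each of 6179 genes only its brightest single-name probe set, 193 genes were called over both times (3.12%) and 52 at both times (0.842%), 34 higher in C57BL/6J and 18 higher in BALB/c. Only 1 of the 78 was among the brightest probe sets, Arl2bp. A core of 15 probe sets stayed called at both times whichever single array was left out: Arl2bp, Bach1, Cap1, Chil3, Ctsc, Epb41l4a, Erdr1, Fbp2, Gbp2b, H2-Ea, the probe set annotated Mir686, Pdxdc1, Qsox1, Snhg6 and Wnk1. The same 15 except Arl2bp held under all 19 settings counted for this, and Arl2bp was missing only where the brightest probe sets were left out. For 6 others, H2-T24, Immp1l, Myrf, Plk2, Serpina1c and Trim25, the call at both times was lost in all 8 settings with 1 array left out.

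**Figure D1:**
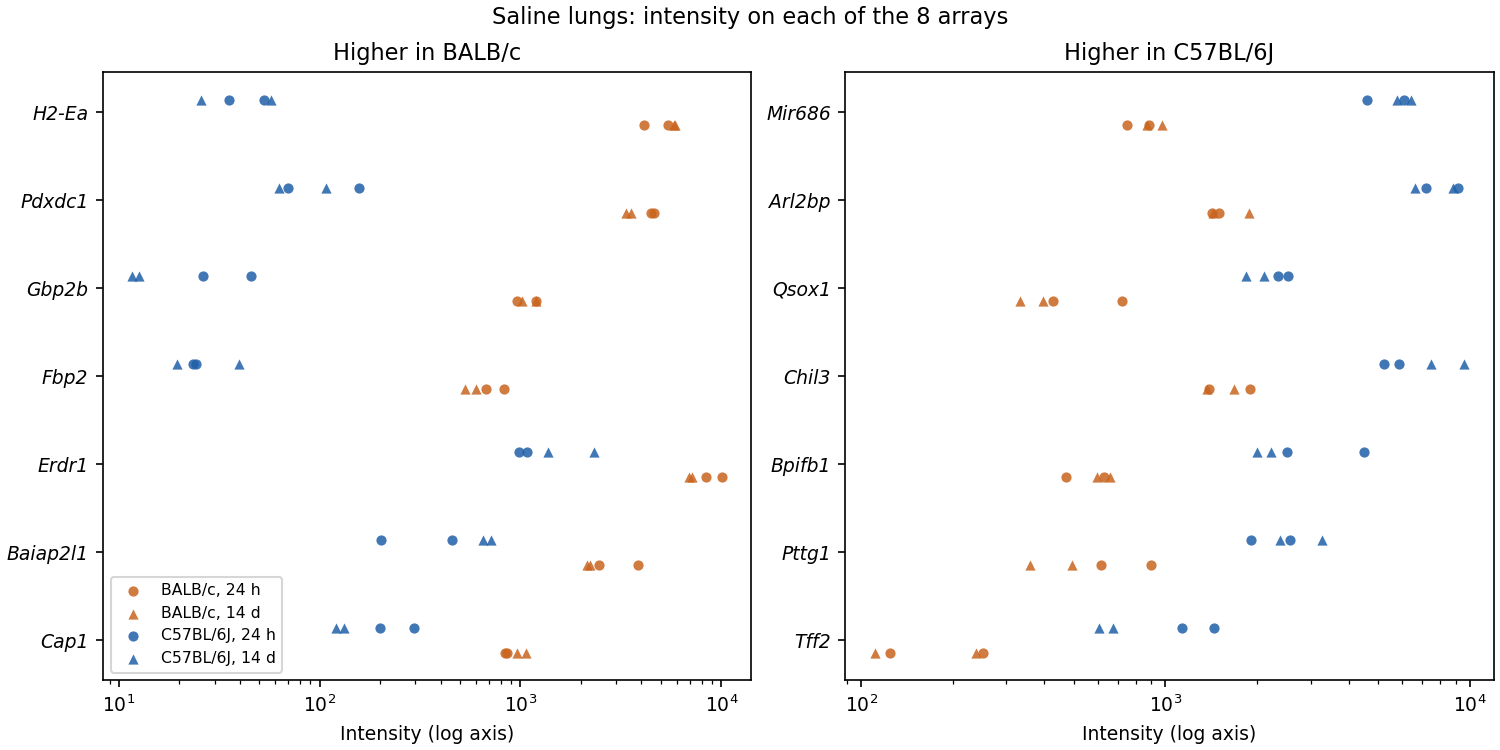
Intensity (log axis) on each of the 8 saline arrays for the 7 genes with the largest strain difference in each direction among genes that differed at both times by their brightest probe set. Circles are 24 h and triangles 14 d arrays, orange BALB/c and blue C57BL/6J, and in no gene do the strains overlap: H2-Ea reads at least 4116 in BALB/c and below 58 in C57BL/6J.

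H2-Ea, the alpha chain of I-E, was the gene with the largest difference. Its intensity was 5409 and 4116 at 24 h and 5854 and 5840.4 at 14 d on the BALB/c arrays, and 52.7 and 35.2 at 24 h and 25.6 and 57.6 at 14 d on the C57BL/6J arrays. All 4 C57BL/6J values lie far below the 4 BALB/c values and under the 225.7 used as the limit for dim probe sets. The difference was -5.32 ± 0.15 (SE, adjusted p = 5.6e-08), or 39.9-fold on the scale with the offset. No other class II gene passed the test over both times, though at 14 d by itself 1 other was called, higher in C57BL/6J. H2-Eb1, the partner of H2-Ea, measured 4393 and 3415 at 24 h and 3113 and 2847 at 14 d in BALB/c and 4691 and 4139.5 at 24 h and 6500.0 and 5344 at 14 d in C57BL/6J. Its difference over both times was 0.57 ± 0.19 (adjusted p = 0.13). Of the I-A chains, H2-Ab1 differed by 0.43 and H2-Aa, whose promoter is printed above, by 0.11. Of 12 class II genes tested 1 was called over both times, against 3.12% of all genes, and the median of the list was 0.15.

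Gbp2b had the next largest difference among immune genes. It read 1197 and 956 at 24 h and 1013 and 1201 at 14 d in BALB/c against 45.6 and 26.3 at 24 h and 11.7 and 12.6 at 14 d in C57BL/6J, a difference of -3.36 ± 0.16 (adjusted p = 4.46e-06). The C57BL/6J values are again under the limit for dim probe sets, and the strains do not overlap. Gbp2, its neighbour on chromosome 3, had 1415 and 1164 at 24 h and 1213 and 1311 at 14 d in BALB/c and 1691 and 1571 at 24 h and 1663 and 1753 at 14 d in C57BL/6J. Its difference of 0.37 ± 0.11 was not called (adjusted p = 0.11). Gbp7 differed by 0.12 and Gbp3 by -0.02, and neither was called. Of 20 interferon-induced genes tested, Gbp2b was the only 1 called, against 3.12% of all genes, and the list's median was 0.06. The list includes the antiviral genes Ifit1, Ifit3, Isg15, Usp18 and Irf7.

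**Figure D2:**
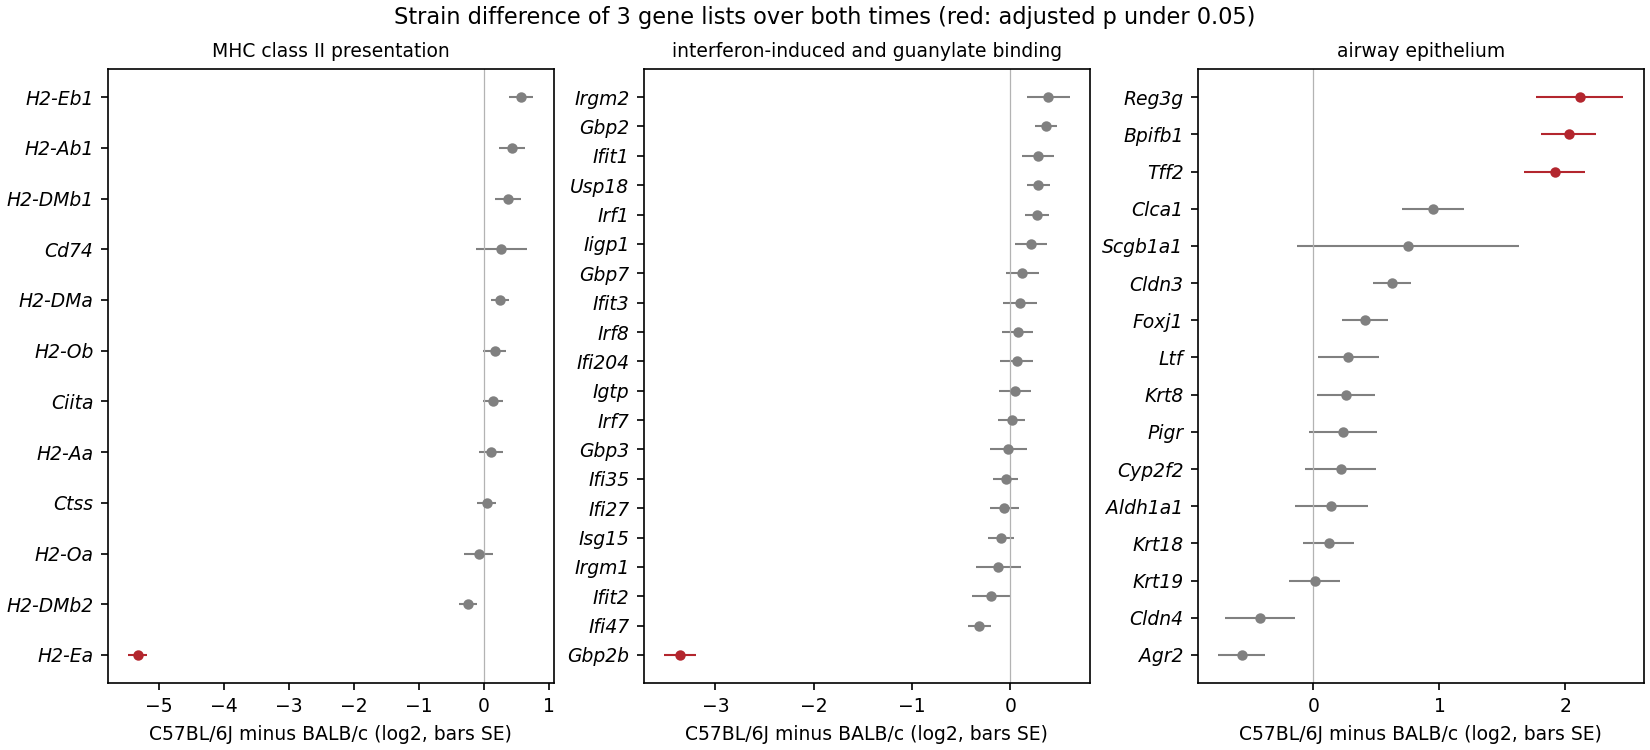
Strain difference over both times (log2, C57BL/6J minus BALB/c, bars SE) for the tested members of 3 gene lists, with members at an adjusted p under 0.05 in red. H2-Ea at -5.32 and Gbp2b at -3.36 stand alone in the class II and interferon lists, and Reg3g, Bpifb1 and Tff2 lie near 2 in the airway list.

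Class I genes, which present peptides to cytotoxic T cells, were seen mostly through probe sets with family suffixes that can share signal between near-identical genes. H2-T24, a non-classical class I gene, was higher in BALB/c at both times: it read 644 and 425 at 24 h and 574 and 442 at 14 d there and 132 and 211 at 24 h and 175 and 129 at 14 d in C57BL/6J (-1.27 ± 0.18, adjusted p = 0.00521). Its call at both times was kept in 3 of 19 settings and in 0 of the 8 with 1 array left out. The classical genes H2-K1 and H2-D1 each had 1 probe set that was higher in BALB/c. For H2-K1 it read 1282 and 1019 at 24 h and 1983 and 1525 at 14 d in BALB/c and 345 and 232 at 24 h and 103 and 245 at 14 d in C57BL/6J (-2.28 ± 0.26, adjusted p = 0.00168). For H2-D1 it read 5721 and 7781 at 24 h and 8139 and 7453 at 14 d in BALB/c and 3092 and 2487 at 24 h and 1767 and 1901 at 14 d in C57BL/6J (-1.64 ± 0.19, adjusted p = 0.0017). Their other probe sets were as bright or brighter and were not called over both times, with differences of 0.40 and 0.28 for H2-K1 and of 0.34 and 0.87 for H2-D1. At 24 h, however, 1 of them in each gene was called higher in C57BL/6J, against the direction above. In H2-K1 this was the brightest, at 1.34 (adjusted p = 0.0149) at 24 h and -0.54 at 14 d. In H2-D1 it was at 1.41 (adjusted p = 0.019) at 24 h and 0.32 at 14 d. With the brightest probe set taken for each gene, 1 of 16 class I and antigen processing genes was called, H2-T24, against 3.12% of all genes. The list median was 0.19.

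Outside immunity, Fbp2, Erdr1, Baiap2l1 and Cap1 had the largest differences among the genes with 1 direction that were higher in BALB/c, beside Bach1. Fbp2, the muscle form of the gluconeogenic enzyme fructose bisphosphatase, read 673 and 829 at 24 h and 529 and 601 at 14 d in BALB/c and 23.5 and 24.2 at 24 h and 19.5 and 39.8 at 14 d in C57BL/6J, a difference of -2.65 ± 0.18 (adjusted p = 6.47e-05). Erdr1 was bright in BALB/c, with 8381 and 10036 at 24 h and 7149 and 6886 at 14 d, and read 1075 and 979 at 24 h and 1378 and 2325 at 14 d in C57BL/6J (-2.48 ± 0.24, adjusted p = 0.000722). Baiap2l1, an adaptor that links membranes to actin, read 3826 and 2472 at 24 h and 2141 and 2231 at 14 d in BALB/c and 203 and 454 at 24 h and 713 and 647 at 14 d in C57BL/6J (-2.27 ± 0.30, adjusted p = 0.00284). All 4 arrays of each strain were apart from those of the other in these genes, though Erdr1 and Baiap2l1 were higher at 14 d than at 24 h in C57BL/6J. Cap1, which binds actin monomers, had 842 and 853 at 24 h and 1071 and 965 at 14 d in BALB/c and 294 and 199.5 at 24 h and 132 and 121 at 14 d in C57BL/6J (-1.92 ± 0.19, adjusted p = 0.000832).

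Several enzymes and receptors of known function followed with differences between 1 and 1.5 in size. Alad, an enzyme of haem synthesis, read 4255 and 4753 at 24 h and 3011 and 3098 at 14 d in BALB/c and 1194 and 1519.5 at 24 h and 1596 and 1420.3 at 14 d in C57BL/6J (-1.33 ± 0.16, adjusted p = 0.00202). Glo1, which detoxifies methylglyoxal, was lower in C57BL/6J by both of its probe sets: the brighter read 3329 and 3352 at 24 h and 4173 and 3979.5 at 14 d in BALB/c and 1624 and 1443 at 24 h and 1972 and 1883 at 14 d in C57BL/6J (-1.06 ± 0.11). The other differed by -1.07 ± 0.13. Gatm, which makes the precursor of creatine, read 582 and 705 at 24 h and 816 and 937 at 14 d in BALB/c and 274 and 256 at 24 h and 167 and 224 at 14 d in C57BL/6J (-1.40 ± 0.18). None of the 4 BALB/c values of these genes overlapped a C57BL/6J value. Procr, the endothelial receptor of protein C, read 561 and 670.1 at 24 h and 563 and 547 at 14 d in BALB/c and 241 and 239 at 24 h and 162 and 131 at 14 d in C57BL/6J (-1.27 ± 0.15, adjusted p = 0.00168). Ocel1 differed by -1.35 ± 0.12, with 4 BALB/c values from 1101 to 1169.6 and 4 C57BL/6J values from 316 to 436.

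The Serpina1 genes encode alpha-1-antitrypsin, the main inhibitor of neutrophil elastase, and are near-identical copies whose probe sets cannot be assigned to a single copy with certainty. Serpina1e read 439.9 and 542 at 24 h and 505 and 485 at 14 d in BALB/c and 121 and 147 at 24 h and 193 and 181 at 14 d in C57BL/6J (-1.22 ± 0.15, adjusted p = 0.00202). Serpina1c read 1005 and 899 at 24 h and 879 and 971 at 14 d in BALB/c and 562 and 508 at 24 h and 534 and 499 at 14 d in C57BL/6J (-0.74 ± 0.11). A probe set of Serpina1b was called over both times but not at 24 h, at -1.45 ± 0.27. All of these were higher in BALB/c.

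Further genes with a probe set higher in BALB/c at both times were the expressed sequence AI506816 (-1.80), the carboxypeptidase Cpd (-1.23), the glutathione S-transferase Gstm2 (-0.98), the chaperone genes Hspd1 (-1.07) and Pdia6 (-0.79), the G protein subunit Gnb1 (-1.38), and the kinase and p53 target Plk2 (-0.76). Bach1, Wnk1, Ddx6, Pdxdc1 and Ctse, which are described below, also had such a probe set. Other probe sets of Pdxdc1 and Ctse were called over both times in the opposite direction. The call of Plk2 at both times was kept in 7 of 19 settings and in 0 of the 8 with 1 array left out. Its call over both times was lost without either of 2 arrays and reached an adjusted p of 0.082 without the BALB/c 14 d b array.

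Among the genes higher in C57BL/6J, 3 belong to the secretions of the airway epithelium. Bpifb1, a secreted protein of airway lining fluid, read 2502 and 4486 at 24 h and 2217 and 2002 at 14 d in C57BL/6J and 469.7 and 629.5 at 24 h and 659 and 594 at 14 d in BALB/c (2.03 ± 0.22, adjusted p = 0.00131). Tff2, a trefoil peptide secreted with mucus, read 1132 and 1443 at 24 h and 671 and 604 at 14 d in C57BL/6J and 251 and 124 at 24 h and 238 and 111 at 14 d in BALB/c (1.91 ± 0.24, adjusted p = 0.00221). The strains did not overlap in either gene, and the C57BL/6J values were higher at 24 h than at 14 d. Reg3g, an antibacterial lectin, read 1167 and 2975 at 24 h and 887 and 877 at 14 d in C57BL/6J and 323 and 117 at 24 h and 218 and 298 at 14 d in BALB/c. It was called over both times (2.11 ± 0.35, adjusted p = 0.0108) but narrowly not at 14 d (adjusted p = 0.0509). These 3 were the only called genes among 16 of the airway epithelium, against 3.12% of all genes, and the list median was 0.27. The mean log2 level of the whole airway list was 11.08 and 11.39 on the C57BL/6J 24 h arrays, 10.75 and 10.48 on those of 14 d, and 10.27 to 10.45 on the BALB/c arrays. In whole lung a smaller share of a cell type and less RNA in each of its cells cannot be told apart, and the part of this list level in the result was not tested.

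Chil3, the chitinase-like protein Ym1 that alveolar macrophages secrete, was higher in C57BL/6J at both times. It read 5229 and 5877 at 24 h and 9606 and 7459 at 14 d in C57BL/6J and 1903 and 1391 at 24 h and 1687 and 1375 at 14 d in BALB/c, a difference of 2.06 ± 0.19 (adjusted p = 0.000407). Marco, a scavenger receptor of alveolar macrophages, was dim, with 118 and 537 at 24 h and 244 and 199 at 14 d in C57BL/6J and 39.2 and 40.8 at 24 h and 22.6 and 16.2 at 14 d in BALB/c. It was called over both times only (1.48 ± 0.32, adjusted p = 0.0376). This call was kept in 1 of the 6 settings with 1 array left out in which it was still tested, and its adjusted p reached 0.109 without the BALB/c 14 d a array. Mpeg1, a perforin-like gene of macrophages, read 2483 and 3382 at 24 h and 4667 and 4065 at 14 d in C57BL/6J and 1358 and 1368 at 24 h and 2015 and 2048 at 14 d in BALB/c (1.05 ± 0.13, adjusted p = 0.00195). Of 20 macrophage genes on the list 2 were called, Chil3 and Marco, against 3.12% of all genes, with a list median of 0.19. The mean log2 level of that list, which includes Chil3, was 10.26 to 10.79 on C57BL/6J arrays and 10.11 to 10.21 on BALB/c arrays, and its part in these differences was not tested.

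Proteases of granules and lysosomes were represented by cathepsin C. Ctsc, which activates the serine proteases of neutrophils and mast cells, had a probe set with 1724 and 2284 at 24 h and 1854 and 2468 at 14 d in C57BL/6J and 168 and 122 at 24 h and 186 and 228 at 14 d in BALB/c, a difference of 3.02 ± 0.15 (adjusted p = 4.46e-06). Another of its probe sets read 396 and 490.3 at 24 h and 305 and 562 at 14 d in C57BL/6J and 61.9 and 26.5 at 24 h and 51.8 and 15.3 at 14 d in BALB/c (2.01 ± 0.23). The brightest probe set of the gene was not called: it read 1652 and 3129 at 24 h and 1598 and 2562 at 14 d in C57BL/6J and 2886 and 2471 at 24 h and 2875 and 2578 at 14 d in BALB/c (-0.32 ± 0.21, adjusted p = 0.426).

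Endothelial genes higher in C57BL/6J were led by Klf2, a transcription factor induced by blood flow. It read 1319 and 1679 at 24 h and 816 and 1047 at 14 d in C57BL/6J and 451 and 573 at 24 h and 89.8 and 165 at 14 d in BALB/c (1.82 ± 0.21, adjusted p = 0.00167), and its BALB/c values were lower at 14 d than at 24 h. Cdh13, the cadherin that binds adiponectin on vessels, read 379 and 362 at 24 h and 462 and 459 at 14 d in C57BL/6J and 95.4 and 77.5 at 24 h and 29.9 and 20.7 at 14 d in BALB/c (1.81 ± 0.22, adjusted p = 0.00187). Nos3, the endothelial nitric oxide synthase, was called over both times (1.31 ± 0.21, adjusted p = 0.00825) but not at 24 h. Procr, the endothelial receptor given above, went the other way at both times (-1.27). Of 28 endothelial genes on the list 2 were called over both times, Klf2 and Nos3, against 3.12% of all genes. The list's median was 0.11. At 14 d by itself, 4 genes of this list were called higher in C57BL/6J and 2 higher in BALB/c.

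Other genes with large differences towards C57BL/6J have no list in common. The probe set annotated to the microRNA gene Mir686, which does not stand for the mature microRNA, read 4591 and 6079 at 24 h and 5776 and 6427 at 14 d in C57BL/6J and 746 and 886 at 24 h and 869 and 971 at 14 d in BALB/c (2.59 ± 0.13, adjusted p = 4.46e-06). Arl2bp, a partner of the small GTPase ARL2, read 9170.4 and 7193 at 24 h and 8788 and 6603 at 14 d against 1500.2 and 1419 at 24 h and 1883 and 1439 at 14 d (2.28 ± 0.16, adjusted p = 6.55e-05). Qsox1, which forms disulfide bonds in secreted proteins, read 2342 and 2534 at 24 h and 2104 and 1842 at 14 d against 427 and 718 at 24 h and 396 and 332 at 14 d (2.07 ± 0.15, adjusted p = 9.2e-05). In these 3 genes the lowest C57BL/6J array read more than the highest BALB/c array. Pttg1, the securin that holds back the separation of sister chromatids, read 2572 and 1907 at 24 h and 3267 and 2384 at 14 d against 899 and 616 at 24 h and 495 and 359 at 14 d (1.97 ± 0.24). Sox11, a transcription factor, read 1977 and 1269 at 24 h and 2014 and 1603 at 14 d against 636 and 324 at 24 h and 511 and 385 at 14 d (1.71 ± 0.21). Bcl3, a nuclear partner of NF-kappaB, read 622 and 896 at 24 h and 539 and 787 at 14 d against 134 and 261 at 24 h and 126 and 119.8 at 14 d (1.68 ± 0.20).

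Host genes of small nucleolar RNAs were represented by Snhg6 and Gas5. Snhg6 read 1027 and 1386 at 24 h and 1021 and 1188 at 14 d in C57BL/6J and 323 and 218 at 24 h and 301 and 294 at 14 d in BALB/c (1.73 ± 0.15, adjusted p = 0.000319). Gas5 read 4356 and 4302 at 24 h and 4429.6 and 3965 at 14 d in C57BL/6J and 2374 and 2448 at 24 h and 1736 and 1870.0 at 14 d in BALB/c (0.999 ± 0.13, adjusted p = 0.00218). The dimmer Gas5 probe set that was tested differed by 0.06 ± 0.24. Another of Gas5 was too dim to be tested and was higher in BALB/c. It read 88.9 and 104 at 24 h and 68.7 and 128 at 14 d there. In C57BL/6J it read 25.7 and 30.9 at 24 h and 58.4 and 32.9 at 14 d. The other probe set of Snhg6, also too dim to be tested, had the opposite sign as well.

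The chemokine Cxcl14 was the only 1 of 19 cytokine and chemokine genes called, against 3.12% of all genes. It read 1055 and 1036 at 24 h and 1955 and 2122 at 14 d in C57BL/6J. In BALB/c the values were 395 and 586 at 24 h and 495 and 505 at 14 d (1.42 ± 0.19, adjusted p = 0.00284). Gsto1, a glutathione S-transferase of the omega class, read 3604 and 3865 at 24 h and 4054 and 3667 at 14 d in C57BL/6J and 2034 and 2176 at 24 h and 1044 and 1000.4 at 14 d in BALB/c (1.31 ± 0.20, adjusted p = 0.0061). It was the only 1 of 16 such transferases called by its brightest probe set, against the same 3.12% of all genes. The remaining genes with a probe set higher in C57BL/6J at both times were Epb41l4a (1.71), Tubb4a (1.55), Thumpd1 (1.44), the peroxiredoxin Prdx2 (1.40), the glutathione synthetase Gss (1.32), Tbc1d15 (1.28), the calcium-dependent kinase Camk2b (1.26), the peptide transporter Slc15a2 (1.26), Ly6d (1.25), the inhibitory ligand Cd200 (1.18), Frrs1 (1.17), Clec11a (1.06), angiogenin Ang (0.96), Tmem159 (0.95), Pcp4l1 (0.93), the proton pump subunit Atp6v1d (0.92), Immp1l (0.89), Spef1 (0.87), Myrf (0.78), Ablim1 (0.74), the collagen-modifying Colgalt1 (0.73) and Trim25 (0.72). Uncalled probe sets of Epb41l4a, Prdx2, Gss and Tbc1d15 are given below. The call of Trim25 at both times was kept in 6 of 19 settings and in 0 of the 8 with 1 array left out, and its call over both times had an adjusted p of 0.0517 without the BALB/c 14 d b array. Of the 5 probe sets without a single gene name 4 were higher in C57BL/6J, by 2.74, 1.33, 1.32 and 1.27. The other was higher in BALB/c, at -1.35.

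Whether other probe sets of a gene went the same way could be asked for part of the 68 genes. The array held 1 probe set for 38 of them and more for 30, and for 23 genes more than 1 was tested. In 3 of the 23 genes, Ctsc, Glo1 and Ddx6, 2 probe sets differed at both times in the same direction. In 3 others, Gnb1, Erdr1 and Pcp4l1, another probe set was called over both times in the same direction: -1.33 ± 0.22 beside -1.38 ± 0.18 for Gnb1, -0.52 ± 0.12 beside -2.48 ± 0.24 for Erdr1, and 0.86 ± 0.15 beside 0.93 ± 0.11 for Pcp4l1. The remaining probe set of Gnb1, its brightest, had the same sign but was not called over both times (-0.59 ± 0.14, adjusted p = 0.0539). The second call of Erdr1 was kept in 1 of 8 settings with 1 array left out, with an adjusted p of up to 0.186 without the BALB/c 14 d a array. That of Pcp4l1 was kept in 6 of 8, with up to 0.0629 without the BALB/c 14 d b array. In 15 of the 23 genes none of the other probe sets was called over both times. Counted singly by that test, of 27 other probe sets 3 were called the same way, 2 the opposite way and 22 were not called. Of these 22, 11 had the same sign. A further 10 probe sets were too dim to be tested, and 8 of these had the same sign.

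Over both times, opposite calls within a gene occurred in Pdxdc1 and Ctse, and at 24 h also in H2-K1 and H2-D1, as given above. Pdxdc1 had 3 probe sets that differed at both times. The first read 4463 and 4619 at 24 h and 3353 and 3539 at 14 d in BALB/c and 158 and 69.4 at 24 h and 108 and 63.1 at 14 d in C57BL/6J (-4.43 ± 0.16, adjusted p = 3.88e-07). The others were higher in C57BL/6J: the second read 1034 and 1187 at 24 h and 1533 and 1691 at 14 d there and 325 and 345 at 24 h and 144 and 254 at 14 d in BALB/c (2.03 ± 0.22). The last read 1004 and 1045 at 24 h and 682 and 648 at 14 d in C57BL/6J and 147 and 232 at 24 h and 203 and 260.3 at 14 d in BALB/c (1.62 ± 0.19). No direction for the gene as a whole follows from these 3. Ctse, an aspartic protease of the endosome, read 503 and 634 at 24 h and 465 and 369.9 at 14 d in BALB/c and 117 and 134 at 24 h and 188 and 153 at 14 d in C57BL/6J by its dimmest probe set (-1.28 ± 0.19, adjusted p = 0.00521). Its brighter probe sets, both with family suffixes, were higher in C57BL/6J, at 1.46 ± 0.22 (adjusted p = 0.00614) and 0.99 ± 0.18 (adjusted p = 0.0159), and each was called at 14 d but not at 24 h. The latter was no longer called in 3 of 8 settings with 1 array left out, with up to 0.0669 without the BALB/c 14 d a array.

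In Bach1, Wnk1 and Ddx6 at least 1 other probe set of the gene was not called. Bach1, a repressor of haem oxygenase, read 679 and 770.1 at 24 h and 469 and 526 at 14 d in BALB/c and 79.2 and 70.3 at 24 h and 51.0 and 47.8 at 14 d in C57BL/6J by a dim probe set (-2.18 ± 0.16, adjusted p = 7.07e-05). Its brighter probe set differed by -0.22 ± 0.23. Wnk1, a kinase of ion transport, read 2293 and 2368 at 24 h and 1427 and 1695 at 14 d in BALB/c and 769.7 and 590.1 at 24 h and 375 and 361 at 14 d in C57BL/6J (-1.75 ± 0.12, adjusted p = 6.91e-05). The other Wnk1 probe sets differed by -0.84 ± 0.20 (adjusted p = 0.0567) and, for the brightest, -0.12 ± 0.17. The former of these was called at 24 h by itself (-1.29, adjusted p = 0.0131) but not at 14 d. Ddx6, an RNA helicase of mRNA decay, was lower in C57BL/6J by 2 probe sets, with 2340.3 and 2644 at 24 h and 1931 and 2161 at 14 d in BALB/c and 1143 and 1437 at 24 h and 656 and 678 at 14 d in C57BL/6J for the brighter (-1.20 ± 0.15). The other differed by -1.14 ± 0.16, but the remaining probe set differed by 0.26 ± 0.21. In Qsox1 and Epb41l4a the brighter probe set was called and the other was not, with 0.31 and 0.31 in the latter. Those called in Gss, Prdx2, Gstm2, Pdia6, Hspd1, AI506816, Tbc1d15 and Cpd were dimmer than probe sets of the same gene that were not called. The brighter probe set had the opposite sign in Hspd1 (0.14), AI506816 (0.29), Gss (-0.23) and Tbc1d15 (-0.17). It had the same sign in Prdx2 (0.21), Gstm2 (-0.42) and Cpd (-0.56), and the brighter 2 of Pdia6 had -0.41 and 0.02.

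**Figure D3:**
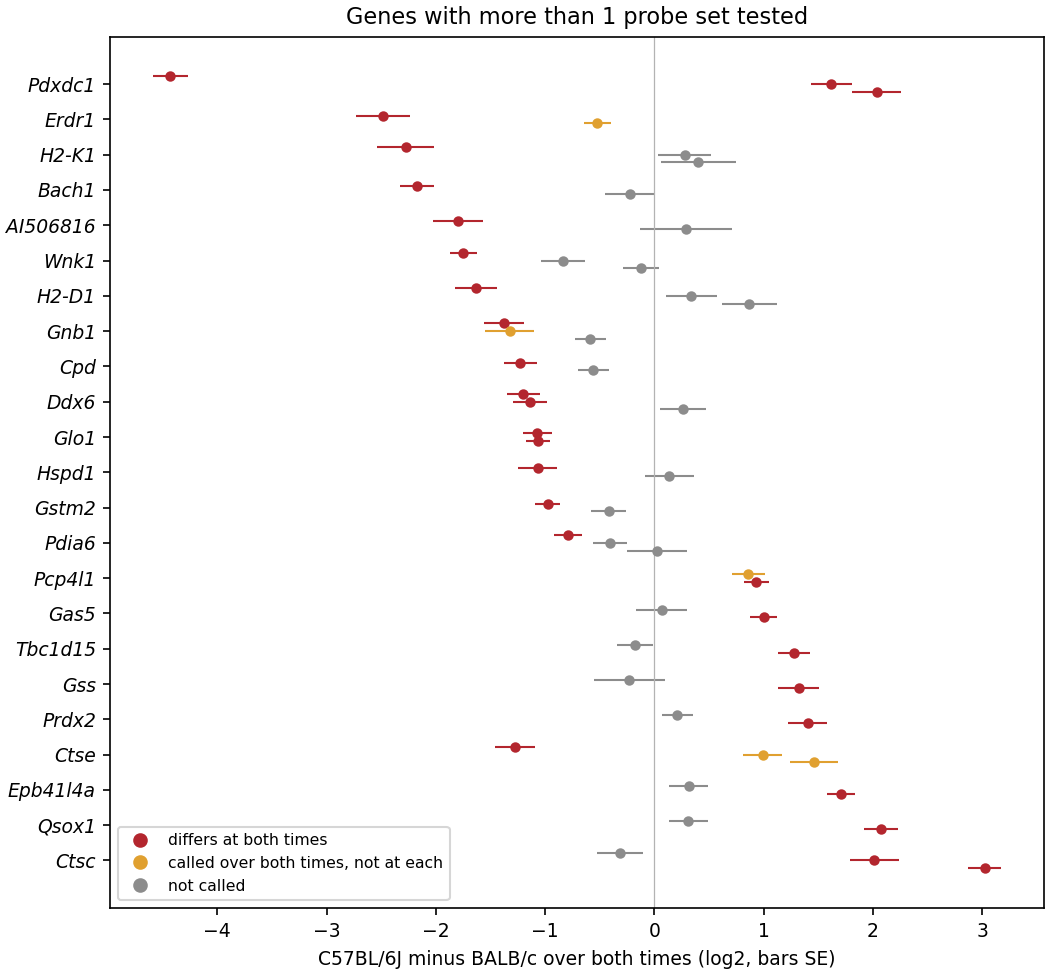
Strain difference over both times (log2, C57BL/6J minus BALB/c, bars SE) of every tested probe set of the 23 genes with more than 1 tested, in red where it differed at both times, in yellow where it was called over both times only, and in grey where it was not called. Glo1 lies together at about -1.07, while Pdxdc1 spans -4.43 to 2.03 and Ctse -1.28 to 1.46.

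Genes tied to fibrosis were called over both times but, by the brightest probe set of each gene, none of them at both times. Of 45 collagens and matrix proteins 4 were called, against 3.12% of all genes, all higher in C57BL/6J, with a list median of 0.09. Col1a1, a chain of type I collagen, read 4690.5 and 5695 at 24 h and 6821 and 7107 at 14 d in C57BL/6J and 3956 and 3562 at 24 h and 2668 and 3090.3 at 14 d in BALB/c by its brighter probe set (0.85 ± 0.18, adjusted p = 0.0361). Its other probe set differed by 0.12 ± 0.16. Dcn, the proteoglycan decorin, differed by 0.64 ± 0.13, Col6a2 by 0.73 ± 0.16 and Col1a2 by 0.58 ± 0.13. Each of these 4 calls was lost in at least 5 of 8 settings with 1 array left out, and the highest adjusted p in these settings was 0.177, for Col1a2 without the BALB/c 14 d a array. Col3a1 differed by 0.03 ± 0.16 in 1 of its probe sets and fibronectin, Fn1, by 0.10 ± 0.13, and neither was called.

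Of 40 genes of the TGF-beta pathway and of myofibroblasts 4 were called, against the same 3.12% of all genes. The smooth muscle calponin Cnn1 was higher in C57BL/6J (0.79 ± 0.14), while the receptor Bmpr2 (-0.88 ± 0.15), the latent TGF-beta binding protein Ltbp3 (-0.87 ± 0.18) and the matricellular protein Ccn2 (-0.72 ± 0.17) were higher in BALB/c. Tgfb1 itself read 771 and 1508 at 24 h and 2089.7 and 1485 at 14 d in C57BL/6J and 789.7 and 788 at 24 h and 444 and 579 at 14 d in BALB/c. It was called at 14 d (1.63, adjusted p = 0.0117) but not at 24 h (0.42) or over both times (1.02 ± 0.27, adjusted p = 0.0789). The smooth muscle actin Acta2 differed by 0.49 ± 0.18 and the protease inhibitor Timp1 by -0.35 ± 0.29, neither of them called. Of 27 proteases and inhibitors, Ctse was called towards C57BL/6J by its brightest probe set, and Serpina1b and the plasminogen activator Plau (-1.04 ± 0.23) towards BALB/c. The share called over all genes was again 3.12%. With 1 array left out the adjusted p of Bmpr2, Ltbp3 and Plau rose to 0.0546, 0.136 and 0.121 and that of Cnn1, Ccn2 and Serpina1b to 0.0629, 0.141 and 0.0717, in each case without a 14 d array.

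Of 24 genes of bleomycin inactivation and of the response to DNA breaks 1 was called, against 3.12% of all genes. Blmh, the hydrolase that inactivates bleomycin, read 2084 and 1904 at 24 h and 1916 and 1932 at 14 d in C57BL/6J and 2002 and 2079 at 24 h and 2311 and 2006 at 14 d in BALB/c (-0.09 ± 0.11, adjusted p = 0.668), with overlapping values. Prkdc, the DNA-dependent kinase that is known to carry a weaker allele in BALB/c, differed by -0.22 ± 0.17 in transcript level. The called gene was the mismatch repair gene Msh6 (-0.84 ± 0.19, adjusted p = 0.0405), and the call was kept in 1 of 8 settings with 1 array left out, with up to 0.175 without the BALB/c 14 d b array. Cdkn1a, the cell cycle inhibitor induced by p53, differed by 0.52 ± 0.31 and 0.08 ± 0.24 in its probe sets. Of 18 p53 targets Plk2 alone was called, against the same 3.12% of all genes. Nnt, a mitochondrial transhydrogenase with a known deletion in C57BL/6J, read 918 and 762 at 24 h and 1020.3 and 1225 at 14 d in C57BL/6J and 815 and 804 at 24 h and 953 and 1140.0 at 14 d in BALB/c (0.07 ± 0.12), with overlapping values, and whether its probes lie in the deleted stretch is not given here. Of 8 genes tested from a list of known allele differences between the strains, H2-Ea and Gbp2b were called, against 3.12% of all genes. Pla2g2a was too dim to be tested, with intensities between 16.7 and 53.1.

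The lists of cell types and pathways described so far leave few further calls. Towards C57BL/6J these were Xdh and Cyp2s1 of 26 xenobiotic genes (1.04 and 0.54), Cd59a of 13 complement genes (0.75), Thy1 of 15 T and NK cell genes (0.94) and Ccnd2 of 25 cell cycle genes (1.06). Towards BALB/c these were Jchain of 15 B and plasma cell genes (-0.85) and the muscle genes Tnnc1 and Myh7 of 22 (-0.95 and -0.87). The mean log2 level of the muscle list was 9.36 to 9.86 on the BALB/c arrays and 9.15 to 9.58 on the C57BL/6J arrays. No gene was called over both times among 25 antioxidant enzymes, 13 surfactant and alveolar type 2 genes, 8 alveolar type 1 genes, 15 genes of neutrophils and the acute phase, 14 clock genes, 26 immediate early and heat shock genes, 7 red cell genes, 6 adipose genes and 7 genes of thymus and lymph node. For all genes, the count over both times was 193 of 6179. At 14 d by itself, 6 of the 26 immediate early and heat shock genes were called, all higher in C57BL/6J. Of all 6179 genes, 396 were called higher in C57BL/6J at 14 d and 262 higher in BALB/c. The surfactant list had 1 call in each direction at each time, and the rest of these lists at most 1. Of the 27 named probe sets that were called over both times but not at each, 4 kept the call with any 1 array left out: Reg3g, Nos3, the brightest of Ctse and the second of Gnb1.

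The 2 times gave different numbers of calls. Of the 174 probe sets called at 24 h, 117 were higher in C57BL/6J (1.42%) and 57 in BALB/c (0.691%). Of the 174, 47 were among the brightest, all higher in C57BL/6J. Of the 917 called at 14 d, 509 were higher in C57BL/6J (6.17%) and 408 in BALB/c (4.95%). Of the 917, 13 were among the brightest, 2 of them higher in C57BL/6J. The strain difference itself changed between the times in 76 probe sets (0.922%), towards C57BL/6J from 24 h to 14 d in 24 (0.291%) and towards BALB/c in 52 (0.631%). Of the 76, 33 were among the brightest, and without the brightest probe sets 1 such call was left. None of the 78 that differed at both times had a called change between the times. At an unadjusted p under 0.05, 20 of the 78 had one, against 1584 of all 8243 probe sets tested. The 78 were chosen for a call of the same sign at each time, so the absence of called changes may partly follow from that choice. A further 11 probe sets were called at both times with opposite signs, 10 of them higher in C57BL/6J at 24 h and 8 among the brightest. They include Ly6e (3.75 at 24 h and -3.19 at 14 d), Rpl41 (6.17 and -2.14) and Snrpb (5.56 and -1.69). Sftpc, the surfactant protein of alveolar type 2 cells, differed by 6.97 at 24 h and -0.71 at 14 d, and Scgb1a1, the secretoglobin of club cells, by 2.96 and -1.46. The count of 174 became 66 or 81 without a BALB/c 24 h array (a or b), 93 or 94 without a BALB/c 14 d array (a or b), 59 or 106 without a C57BL/6J 24 h array (a or b), and 266 or 265 without a C57BL/6J 14 d array (a or b). The count of 917 became 83 or 62 without a BALB/c 14 d array (a or b) and 304 without the C57BL/6J 14 d a array. Without either C57BL/6J 14 d array most calls at 14 d were higher in BALB/c, with 129 higher in C57BL/6J and 175 in BALB/c (without a) and 306 and 412 (without b).

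**Figure D4:**
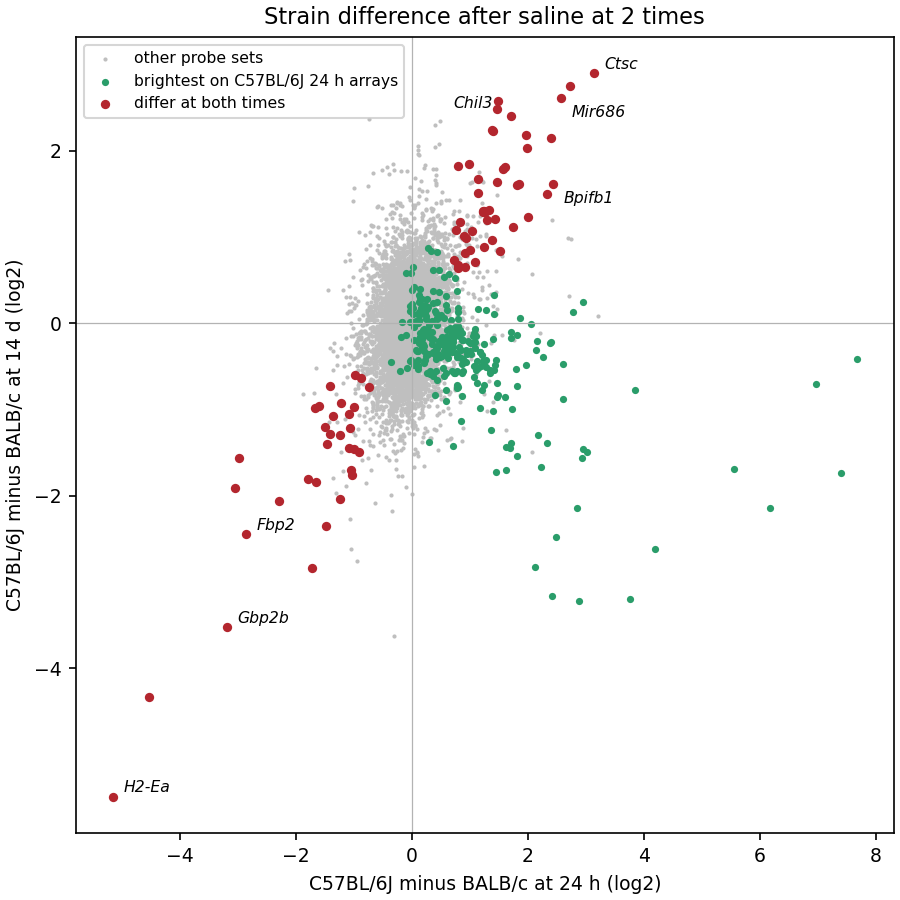
Strain difference (log2, C57BL/6J minus BALB/c) at 24 h and at 14 d for the 8243 probe sets tested, each point a probe set. The 78 that differed at both times (red) lie along the diagonal, from -5.32 over both times for H2-Ea to 3.02 for Ctsc, while the brightest on the C57BL/6J 24 h arrays (green) lie mostly to the right of 0 at 24 h and spread to both sides of it at 14 d.

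Of the probe sets called at 14 d, 828 were not called at 24 h, and 536 of these had the same sign there. Of those called at 24 h, 85 were not called at 14 d, and 38 of these were among the brightest. The 12 bleomycin arrays, which share no array with the saline comparison, gave a strain difference in 546 probe sets (6.62%), with time as a block. Of the 78 probe sets that differed at both times after saline, 67 had the same sign in the bleomycin arrays and 52 were called there in the same direction (66.7%), and 0 were called in the opposite direction (11 had the opposite sign). Of those called at 14 d only, 10.4% were called in the same direction in the bleomycin arrays, and of those called at 24 h only, 12.9%. The sign was the same there in 577 of the 828 called at 14 d only. It was the same in 71 of the 85 called at 24 h only. The bleomycin count was 343, 320 and 326 without the a array of BALB/c 24 h, BALB/c 72 h and C57BL/6J 72 h.

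The leading genes had like values in the bleomycin arrays. H2-Ea had a lowest, median and highest intensity of 2917, 4090.0 and 6068 on the 6 BALB/c arrays and 29.2, 56.6 and 166 on the 6 C57BL/6J arrays (-4.68 ± 0.19). Gbp2b had 742, 1102 and 1655 in BALB/c and 6.42, 9.54 and 16.4 in C57BL/6J (-3.50 ± 0.15). Chil3 had 1034, 1876 and 2759.6 in BALB/c and 4442, 7103 and 15559.6 in C57BL/6J (2.0 ± 0.15). In each of these 3 genes the 6 arrays of a strain did not overlap those of the other. The bleomycin arrays gave 2.84 for the first probe set of Ctsc, 2.72 for that annotated Mir686, 2.17 for Arl2bp, 2.24 for Qsox1 and -2.54 for Fbp2. For the probe sets of Pdxdc1 they gave -4.95, 1.69 and 1.58, in the same directions as after saline.

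For other genes the strain difference after saline was not that after bleomycin. A contrast of the strain difference after saline minus that after bleomycin, over 24 h and 14 d and with 10 group means on 20 arrays, was called in 86 probe sets (1.04%) and in 12 of the 78, which were chosen on the saline side of it. Wnk1 had -1.75 after saline and 0.15 after bleomycin in this fit, a contrast of -1.90 ± 0.21 (adjusted p = 0.00125). Bach1 had -2.18 and 0.59, a contrast of -2.77 ± 0.35 (adjusted p = 0.00187). On the bleomycin arrays Bach1 had a lowest, median and highest value of 27.1, 92.5 and 295 in BALB/c and 46.8, 258 and 366 in C57BL/6J, so that the strains overlapped. Tubb4a had a contrast of 1.26 ± 0.19 (adjusted p = 0.00709), and Cdh13 of 1.76 ± 0.33 (adjusted p = 0.0316), with 46.2, 210.0 and 409.5 in BALB/c and 85.6, 143 and 257 in C57BL/6J after bleomycin. The others were Ddx6 by both probe sets (-1.76 and -1.42), Cpd (-1.42), Gss (1.47), Myrf (0.94), Plk2 (-0.91), Gsto1 (0.71) and the probe set with no single gene name that was higher in BALB/c (-1.70). Bpifb1 and Tff2, the airway genes, had differences of 0.44 ± 0.22 and 0.34 ± 0.28 in the bleomycin arrays, not called there, and were not among the 12.

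**Figure D5:**
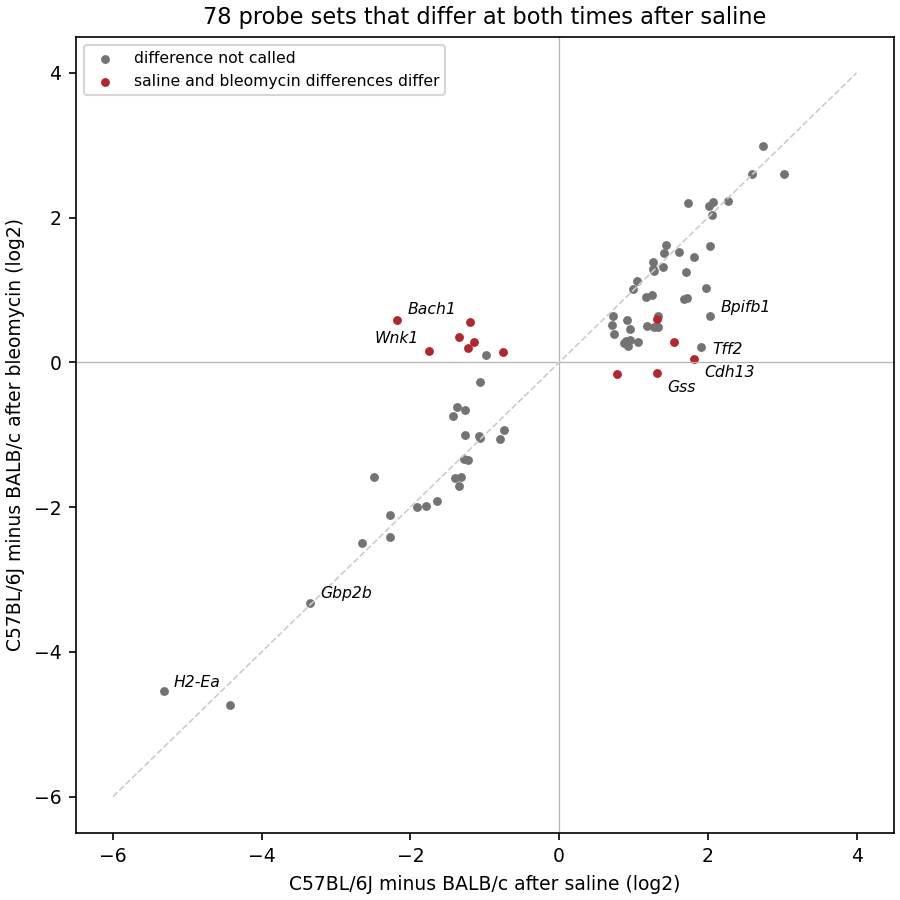
Strain difference (log2, C57BL/6J minus BALB/c, means over 24 h and 14 d) after saline and after bleomycin for the 78 probe sets that differed at both times after saline, with the 12 whose contrast between treatments was called in red and equality as a dashed line. Gbp2b (-3.36 and -3.32) lies near the line and H2-Ea (-5.32 and -4.54, contrast not called) somewhat off it, while Wnk1 (-1.75 and 0.15) and Bach1 (-2.18 and 0.59) lie far from it.

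The position of the genes was taken from the RefSeq gene order on GRCm38.p6. Of the 68 genes 63 were in this order, and 6 of them had another of the 68 with at most 5 genes between: Glo1 and Tff2, Gss and Procr, and Serpina1c and Serpina1e. Of the 236 tested neighbours within that window 6 differed at both times (2.54%), against 1.03% of the 6094 tested genes in the order. Each pair enters these 6 from both sides, and the probe sets of Serpina1c and Serpina1e cannot be assigned to a single copy with certainty. Whether the shares differ was not tested. Members of a neighbouring pair did not always share a direction: Glo1 was higher in BALB/c and Tff2 in C57BL/6J, and Procr was higher in BALB/c and Gss in C57BL/6J.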

How the data were processed

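Total RNA of mouse lung was measured on 24 Affymetrix arrays, of which 8 were compared (4 C57BL/6J and 4 BALB/c, saline, 24 h and 14 d). Each deposited value is a linear intensity of 1 probe set. Their trimmed mean between the 2nd and 98th percentiles is 799.9 on every array, so the authors scaled them, as the values show, while no source used here gives the algorithm. They were used without further normalization, as log2(intensity + 91.69), the offset being the median over the arrays of the lower quartile. Of 12488 probe sets, 66 controls were left out, and 8243 exceeded 225.7 (the 40th percentile) on at least 2 of the 8 arrays. The offset and limit were first computed with the controls in; they were taken out of both, to follow the processing used for the whole series, after results had been seen, and the counts with them are given among the dependences on processing.

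limma 3.58.1 in R 4.3.3 was fitted with strain and time as terms (5 residual degrees of freedom), and with the 4 group means for each time and for the change between times (4 residual degrees of freedom), with variance trend and Benjamini-Hochberg adjustment over all probe sets tested. A probe set differed at both times if its adjusted p was under 0.05 at each, with the same sign. On simulated data for the 8243 probe sets, the rule for both times recovered 0% of log2 differences of 0.5, 41.8% of those of 1 and 95.5% of those of 2, with 0 false calls. The simulated noise was independent between arrays and probe sets and held no array effects. The number of false calls in the real data therefore cannot be read from it. The number of arrays limits the precision. Arrays of a group are lettered a and b, and equal letters did not deviate together across groups (correlations from -0.146 to 0.152).

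Symbols came from the platform annotation: of 12422 probe sets not for control, 10833 had 1 gene name, 396 several and 1193 none, and 10817 gene IDs were found in the RefSeq table of GRCm38.p6. Statements on genes in lists use the probe set with 1 name and the highest mean. The members, the 29 gene lists and the tests were chosen with earlier results of these data known. Named are the 15 genes with the largest differences in each direction among those at both times, of which 1 is not reported here, up to 4 members of each list, genes fixed by name, and genes with several probe sets called. The other genes that differed at both times, and examples with opposite signs at the times, were named after their values were seen.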

Additional observations from a re-analysis of the deposited data

Results flagged for a closer look

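For 5 named probe sets the strain difference at 14 d was not the strain difference at 24 h, by limma's test of the change between times over all 8243 probe sets tested. Differences are C57BL/6J minus BALB/c and changes are 14 d minus 24 h, in log2(intensity + 91.69), and in each case the C57BL/6J 24 h arrays with the other title suffix enter the 24 h side. The change was -8.07 (adjusted p = 0.000442) in Hba-a1, a haemoglobin chain, whose C57BL/6J arrays read 63583 and 37045 at 24 h and 361 and 345 at 14 d and whose BALB/c arrays read 292 and 58.4 at 24 h and 417 and 592 at 14 d. It was -7.67 (adjusted p = 0.00192) in Sftpc, with 78641 and 43229.9 at 24 h and 650.5 and 127 at 14 d in C57BL/6J and 485 and 286 at 24 h and 594 and 540.2 at 14 d in BALB/c. In both genes the C57BL/6J 24 h arrays stood far above the other 6.

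Jund, a subunit of the transcription factor AP-1, changed by -2.71 (adjusted p = 0.0218), with 17463 and 18358 at 24 h and 3573 and 3093 at 14 d in C57BL/6J and 1656 and 3007 at 24 h and 3154 and 2463 at 14 d in BALB/c. The brightest probe set of H2-K1 changed by -1.88 (adjusted p = 0.0353), with 27623 and 20988 at 24 h and 7966 and 7124 at 14 d in C57BL/6J and 8609 and 10332 at 24 h and 11249 and 10722 at 14 d in BALB/c. Arntl, a subunit of the clock's activator, changed the other way, by 1.41 (adjusted p = 0.038), with 303 and 324 at 24 h and 779.7 and 838 at 14 d in C57BL/6J and 372 and 374 at 24 h and 326 and 271 at 14 d in BALB/c. The part of the title suffix in these 5 changes was not tested.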

How the results depend on the processing

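Over both times 275 probe sets were called, and this became 881 with 20 arrays and 10 group means, and, in settings chosen after seeing the data, 637 with 4 group means averaged over the times and 917 with the title suffix as a further term, which leaves the 14 d arrays alone to give the difference. At 14 d, 917 became 511 with no filter and 1405 with array weights. The 76 changes between times became 32 under quantile normalization, 9 with no filter, 43 with no variance trend, 169 with 20 arrays and 1 without the brightest probe sets, where fewer were tested. Their share towards C57BL/6J was 31.6% and became 15.6% under quantile normalization, 16.1% with the array letter as a replicate block and 68.6% with 20 arrays (116 towards C57BL/6J and 53 towards BALB/c), where the majority turned. At 24 h the share was 67.2% and became 55.6% with 20 arrays. Leaving out 1 array gave 108 to 295 over both times, 25 to 85 at both times, 59 to 266 at 24 h, 62 to 992 at 14 d, 9 to 210 for the change between times and 320 to 514 in the bleomycin arrays. With the array letter as a replicate block the counts were 190 over both times, 68 at both times, 147 at 24 h, 711 at 14 d, 31 for the change between times and 439 in the bleomycin arrays; the letters share only a name, since equal letters did not deviate together. With the control probe sets kept in the offset and the filter, as first computed, the counts were 276, 77, 174, 912, 76 and 546 in the same order, and all 77 were among the 78. The 78 at both times became 52 to 86 under the settings that kept all arrays, and 73 of them were kept under quantile normalization. No named probe set changed its direction while called. Except for the settings that drop arrays or probe sets, the cause of these shifts was not tested. Signal limits the comparison for dim probe sets, whose differences the offset makes smaller.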
